A study of Petromyzon marinus with 6 samples.

Results

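The 7 loci described here are those named STON2, SCRG1, EMP2, GTF2F2, PTGES3, CARTPT and VIM, out of 57134 loci in the count table. They are the loci with a gene symbol on the GABA sheet of Supplementary File 1, which holds 23 loci and 15 symbols, after leaving out 9 loci that the rule names, 1 of them without a symbol. The sheet was selected on the adjusted p of DESeq2 between the same GABA-treated and control samples that are analysed here. The values of that contrast are therefore given as a description, with no test of any of the 7 loci. The sheet holds loci that were higher after GABA as well as lower ones, more of them lower according to the paper. The rule itself names no direction. All 7 were lower in the GABA-treated samples, by between 16.8% (GTF2F2) and 30.4% (SCRG1) of the control mean. Of the 5990 loci over which DESeq2 adjusted p here, 63.7% had a log2 change below 0 in the edgeR fit. Nothing is read from the shared direction, or from the size of the differences, which the choice used through p.

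The animals of both groups were larval sea lampreys (Petromyzon marinus) of the river Ulla population, 5 to 7 years old, whose spinal cord had been cut completely. The control samples came from injured larvae without a drug, and the GABA-treated samples came from injured larvae kept in water with GABA at 500 µM. The brainstem, which holds the neurons that send axons down the cord, was dissected at 29 days post-lesion (dpl) according to the methods, whereas the text deposited with the series gives 9 days. There were 3 samples in each group, and each of them pooled the RNA of 4 brainstems, so that the spread between samples is a spread between pools and not between animals. Total counts per sample ran from 12261374 to 14248306 in the controls and from 13266414 to 14666153 after GABA. Values for single loci are counts divided by TMM size factors (a scaling for library size and composition), called normalized counts here.

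The 7 genes are known for different roles. Vimentin (VIM) is an intermediate filament protein, which in vertebrate brains is typical of radial glia and ependymal cells, and EMP2 is a membrane protein with 4 membrane passes, of the PMP22 family. CARTPT encodes the precursor of the CART neuropeptides, and SCRG1 encodes a small secreted protein first found in the scrapie-infected brain of rodents. STON2 (stonin-2) is an endocytic adaptor that in mammals links synaptotagmin to the AP-2 clathrin adaptor when synaptic vesicle membrane is taken back into the terminal. PTGES3, also called p23, is a co-chaperone of HSP90, and GTF2F2 is the small subunit of TFIIF, a general factor of transcription by RNA polymerase II.

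The loci were built by StringTie from the reads, and the count table gives their exons but no coding regions or UTRs. Coordinates are those of the germline assembly Pmar_germline 1.0. VIM (locus MSTRG.12566) lay on contig PIZI01000016.1 from 15559229 to 15573646 on the minus strand, in 9 exon blocks with 3730 bp of exon. EMP2 (MSTRG.23838) lay on PIZI01000037.1 from 8088178 to 8157482 on the minus strand, with 6 blocks and 8460 bp, of which 1 block of 7994 bp made up 94.5%. The compact loci were PTGES3 (MSTRG.3604, PIZI01000004.1, 15723719 to 15729319, minus strand), with 8 blocks in 5601 bp, and SCRG1 (MSTRG.15134, PIZI01000021.1, 5825990 to 5836569, minus strand), with 3 blocks in 10580 bp. STON2 (MSTRG.7488, PIZI01000009.1, 7125485 to 7154184, minus strand) had 4 blocks, the last of them 6420 bp long. The largest block held between 46.7% and 94.5% of the exon length at the 7 loci, where the median was 55.2% over the 15440 loci tested with at least 3 blocks. Exon length ran from 2705 bp (PTGES3) to 13146 bp (GTF2F2), against a median of 2505 bp over all 24300 loci tested.

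EMP2, CARTPT and GTF2F2 reached far beyond their main exon groups. The last block of EMP2 was one of 24 bp after a gap of 34912 bp. CARTPT (MSTRG.32314, PIZI01000060.1, 871508 to 929392, plus strand) had 6 blocks with 5921 bp of exon, the last of them a block of 24 bp after a gap of 46459 bp. Its 689 exon records, from overlapping transcript models, collapsed into these 6 blocks, and 30 of the loci tested had more records. GTF2F2 (MSTRG.32603, PIZI01000061.1, 2169908 to 3661279, plus strand) spanned 1491372 bp, and 25 of the loci tested were longer. Its 21 blocks fell into 4 groups parted by gaps of 222817, 462998 and 741057 bp. The first group had 9 blocks with 3776 bp of exon and the third had 10 blocks with 9217 bp, while the others were single blocks of 42 and 111 bp. The counts are sums over a locus and could not be divided between these groups. The value named GTF2F2 may therefore not be that of 1 gene, and the symbols were taken as the sheet gives them.

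**Figure D1:**
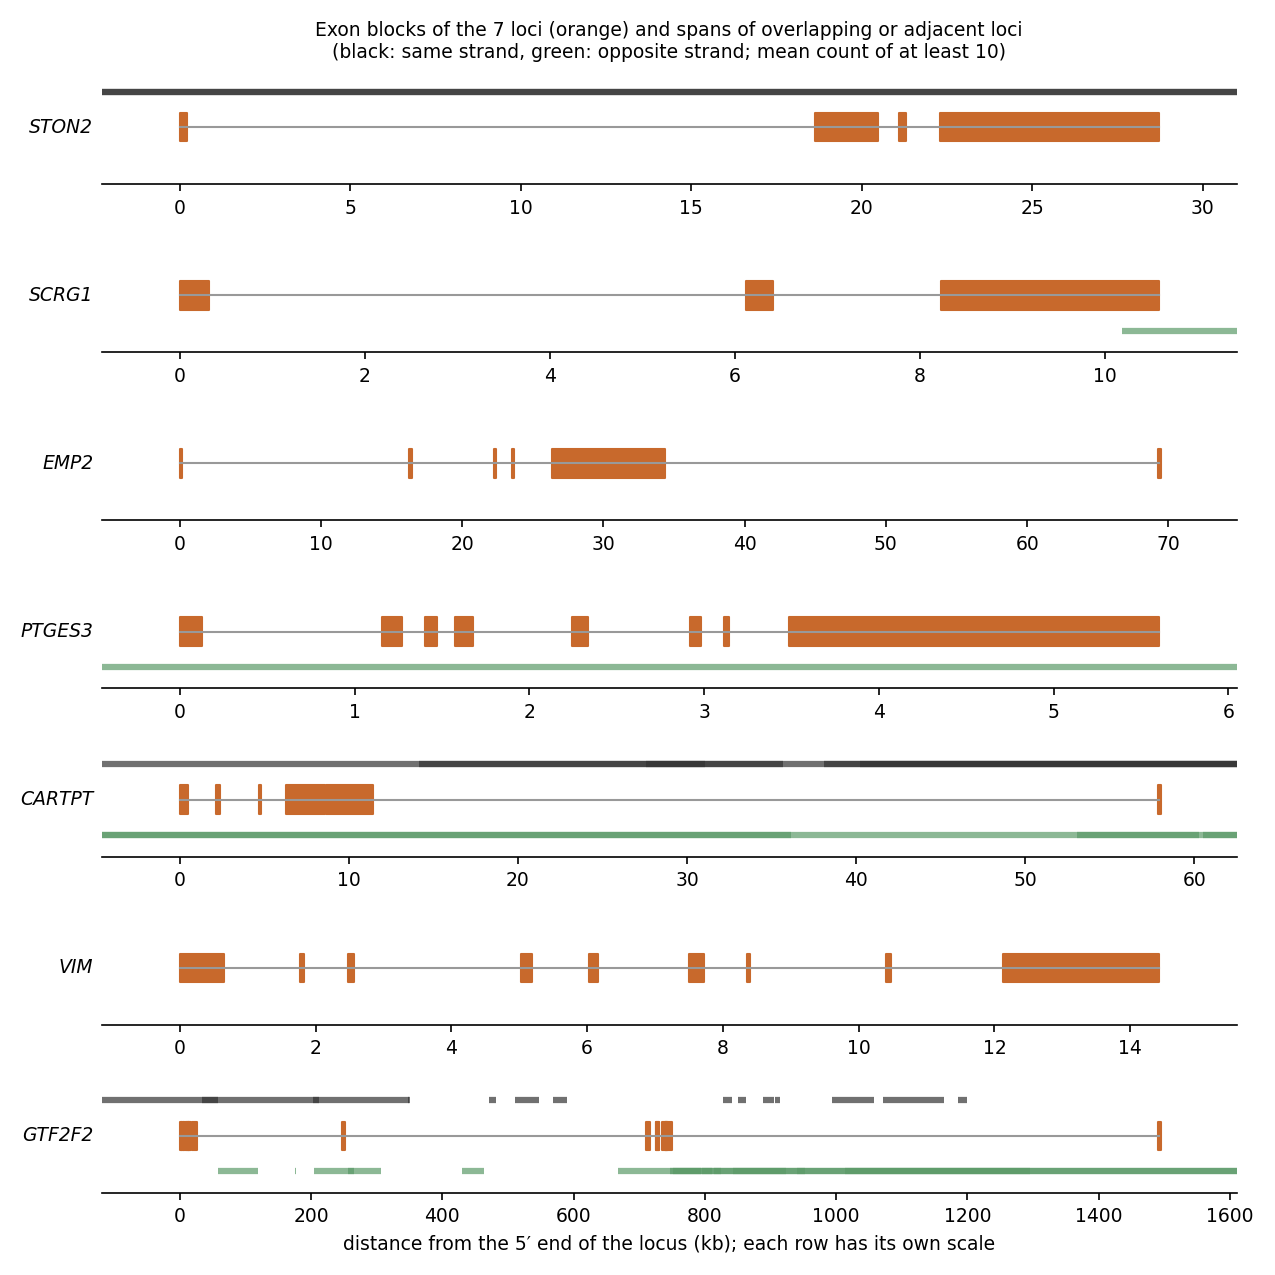
Exon blocks of the 7 loci by distance in kb from the 5′ end of the locus, each row on its own scale, with the spans of neighbouring loci with a mean count of at least 10 as far as they reach into the row (black on the same strand, green on the opposite strand). The long 3′ blocks of STON2, SCRG1, PTGES3 and VIM and the 4 separate exon groups of GTF2F2 can be seen.

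Levels are given as CPM/kb, counts scaled to library size (CPM) per kilobase of exon, so that loci of unequal length can be compared. VIM was the highest of the 7, with a level of 187 ± 23.7 CPM/kb (SD, n = 3) in the control samples and 145 ± 15.3 (SD, n = 3) after GABA. PTGES3 followed with 150 ± 11.7 and 120 ± 5.97 CPM/kb, and GTF2F2 with 112 ± 5.20 and 92.8 ± 2.79 (SD, n = 3 each). CARTPT stood at 70.5 ± 2.83 and 56.5 ± 6.11 CPM/kb and EMP2 at 36.8 ± 1.57 and 30.0 ± 1.02 (SD, n = 3 each). The lowest levels were those of STON2, at 20.1 ± 1.59 and 15.5 ± 1.22 CPM/kb, and SCRG1, at 15.7 ± 1.90 and 10.9 ± 1.11 (SD, n = 3 each). This order held in 6 of 6 samples at each step. Over all samples, the ranges of VIM and PTGES3, of PTGES3 and GTF2F2, and of STON2 and SCRG1 overlapped, and the ranges of the other neighbours in the order did not.

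All 7 were well expressed, against a median of 3.28 CPM/kb over the loci tested. VIM had a higher level than all but 0.749% of them, and SCRG1 than all but 14.3%. By counts, the locus named GTF2F2 ranked 40 among the 24300 loci with a mean of 17905 counts per sample, and SCRG1 ranked 5609 with 520. In the DESeq2 run made here, p was adjusted only over the 5990 loci with a mean normalized count above 470.2, and SCRG1 lay just above this minimum at 520.3. A locus below such a minimum could not be called, so the high ranks follow in part from the rule.

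At VIM, the normalized counts were 10278, 7991 and 9635 in control samples 1, 2 and 3, and 7218, 6451 and 7974 in GABA-treated samples 1, 2 and 3. Control sample 2 and GABA-treated sample 3 all but met, with 17.2 normalized counts between them. Means of 9301 ± 1179 and 7214 ± 761 (SD, n = 3 each) gave a log2 change of −0.37 (standard error 0.10) in the edgeR fit. Whether the groups overlapped depended on the scaling. With library size only, the highest GABA-treated sample was 8055 and the lowest control 7938. They also overlapped with upper-quartile factors (8016 and 7966) and with factors taken from abundant loci (8108 and 7985), and stayed apart with the size factors of DESeq2 (7965 and 7981). VIM had the widest spread of the 7 in the controls, with a coefficient of variation of 12.7%, next to 12.1% at SCRG1.

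In edgeR's estimate of the variation between samples, the biological coefficient of variation (BCV), EMP2 had 6.08%, close to the 6.13% of GTF2F2. By the coefficient of variation within a group, EMP2 was not the lowest. It had 4.26% in the controls, against 4.02% at CARTPT, and 3.40% after GABA, against 3.00% at GTF2F2. The normalized counts of EMP2 were 3958, 4202 and 4302 in the controls and 3259, 3488 and 3391 after GABA. The groups were apart by 470 normalized counts. The means of 4154 ± 177 and 3379 ± 115 (SD, n = 3 each) gave a log2 change of −0.30 (standard error 0.06).

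Among the secreted products, the neuropeptide precursor CARTPT had 5821, 5448 and 5422 normalized counts in the controls and 4236, 4126 and 5010 after GABA. GABA-treated sample 3 stood closer to the controls than the other GABA-treated samples did. With means of 5564 ± 224 and 4458 ± 482 (SD, n = 3 each), the log2 change was −0.32 (standard error 0.08). It was −0.41 without that sample. SCRG1, the least abundant of the 7, had 561, 702 and 590 normalized counts in the controls and 456, 379 and 454 after GABA. Its means of 618 ± 74.7 and 430 ± 43.8 (SD, n = 3 each) gave the most negative log2 change of the 7, −0.52 (standard error 0.11). Control sample 2 was the high one here, and without it the change was −0.42. The 7 were chosen on p, so a locus with a larger standard error needed a larger change to enter. SCRG1 had the largest standard error of the 7, and its place in the order of changes follows in part from the rule.

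The endocytic adaptor STON2 had 2118, 2402 and 2464 normalized counts in the controls and 1628, 1851 and 1890 after GABA. In both groups sample 1 was the lowest, and the groups were apart by 228. Its mean was 2328 ± 184 in the controls and 1790 ± 141 after GABA (SD, n = 3 each), with a log2 change of −0.38 (standard error 0.08).

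The co-chaperone PTGES3 had 4990, 5378 and 5831 normalized counts in the controls and 4581, 4158 and 4296 after GABA. The means of 5400 ± 421 and 4345 ± 215 (SD, n = 3 each) gave a log2 change of −0.31 (standard error 0.07). Control sample 3 was the highest, and without it the change was −0.26. The wide locus named GTF2F2 had 20400, 18590 and 19684 normalized counts in the controls and 15943, 16829 and 16029 after GABA. Its mean was 19558 ± 912 in the controls and 16267 ± 488 after GABA (SD, n = 3 each). The log2 change of −0.27 (standard error 0.06) was the smallest of the 7, a place that also follows in part from the choice on p.

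**Figure D2:**
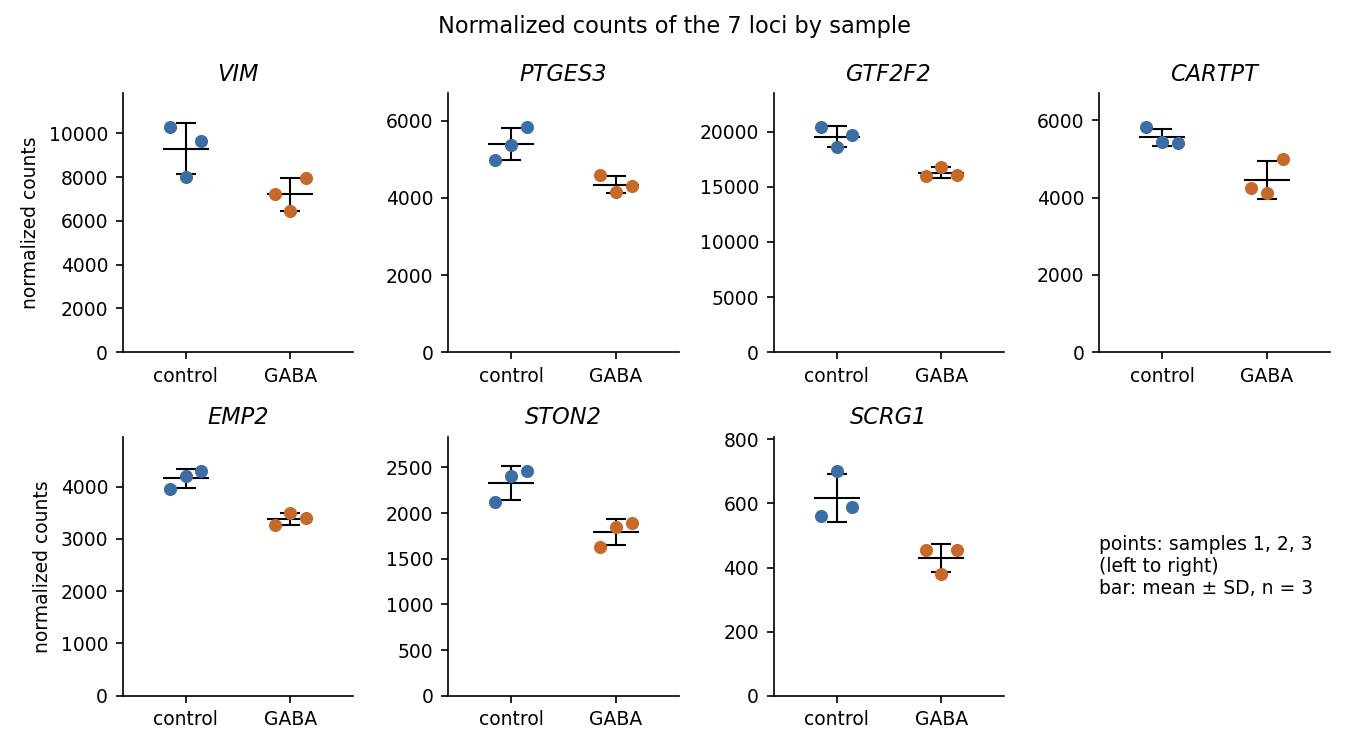
Normalized counts (y axes, from 0) of each of the 7 loci in the 3 control and 3 GABA-treated samples, with points for samples and bars for the mean ± SD. At 7 of 7 loci the GABA-treated samples lay below the controls, with the narrowest distance at VIM (7974 against 7991).

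Control and GABA-treated samples did not overlap at 7 of the 7 loci, each with the GABA-treated samples lower. Of all loci tested, 6.37% had groups apart in this direction. DESeq2 called 0.384% of the loci over which it adjusted p, and the 7 are among these calls by the rule, so nothing can be read from either count. The median log2 change of the 7 was −0.32, beside 0.01 over all loci tested and −0.03 over the 5990 abundant ones. In a bulk sample, fewer cells of a type and less RNA per cell cannot be told apart. The member nearest to the threshold of the rule was VIM, with an adjusted p of 0.0491 in DESeq2 and a log2 change of −0.38, and the first locus outside it had 0.0507 and −0.29, at a mean of 14930 normalized counts and with no symbol.

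**Figure D3:**
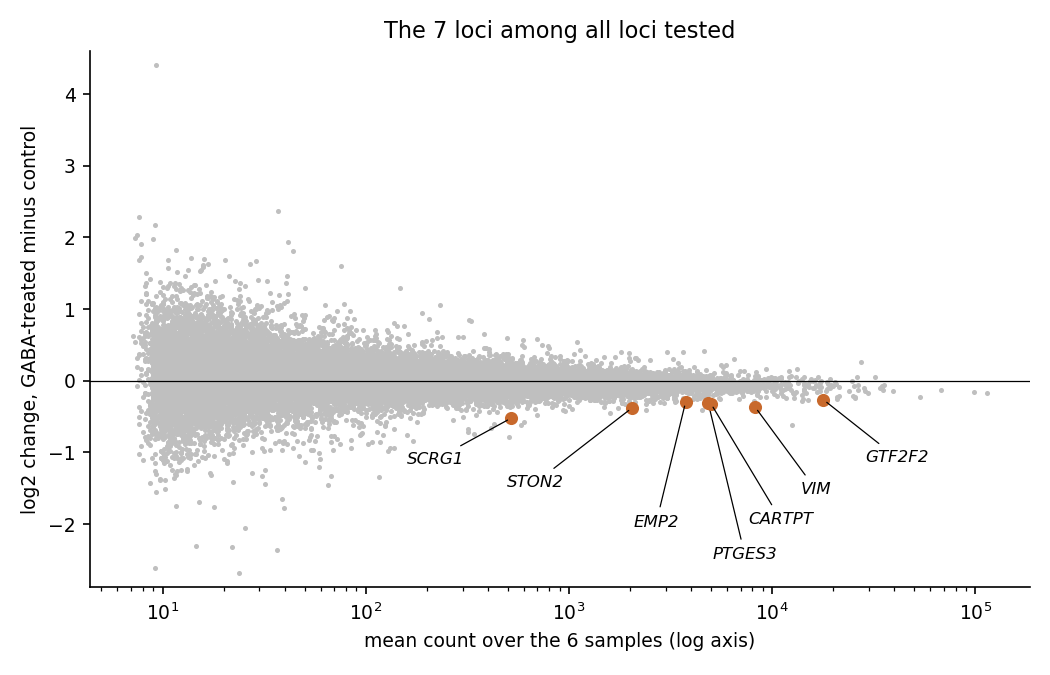
Log2 change between GABA-treated and control samples (y axis) against the mean count over the 6 samples (x axis, log scale) for the 24300 loci tested in grey, with the 7 loci marked. They lie at the lower edge of loci of like abundance, from SCRG1 at 520 counts to GTF2F2 at 17905. A place at an edge, lower or upper, follows from the choice on this contrast.

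The summed share of the 7 loci in the total counts ran from 0.331% to 0.357% in the controls and from 0.280% to 0.294% after GABA. Each of the 7 was chosen on this contrast and was lower, so the lower share follows from that. The locus named GTF2F2 gave the most counts to the sum, with a mean of 17905, next to 8247 at VIM. The spread between replicates, which the rule used through its p, was below that of most loci. The BCV lay between 6.08% (EMP2) and 9.44% (SCRG1), against a median of 13.7%, and 2.32% to 30.7% of the loci tested had a lower one. The median mean count of the loci tested was 103, below that of each of the 7, and no comparison was made at like abundance.

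Log2 CPM values, centred on the mean of each locus, were compared as profiles over the 6 samples by their root mean square difference. Of the 57 other loci with a symbol that were tested, the one most like PTGES3 was ARL3 (0.03), which ranked 2 among all loci. ARL3 was also the named locus most like EMP2 (0.05, rank 23). SULF1 was nearest to GTF2F2 (0.06, rank 37), CARTPT (0.12, rank 270) and VIM (0.14, rank 208), AP2S1 to STON2 (0.08, rank 18) and HESB to SCRG1 (0.10, rank 9). Loci without a symbol stood ahead of the named ones in these ranks, and at CARTPT and VIM they were many. At STON2, CARTPT and VIM, another of the 7 stood ahead as well. ARL3, SULF1 and AP2S1 stand on the same sheet, so that a difference between the groups was fixed by that choice, though not its direction. The symbol HESB is carried by more than 1 locus. The locus nearest to SCRG1, MSTRG.35975, is listed on the sheet of the separate experiment with the drug baclofen, and not on the GABA sheet. The paper reports HESB as lower after both GABA and baclofen, and its report for GABA does not rest on a listing of this locus. The likeness of MSTRG.35975 to SCRG1 was measured over the same 6 samples in which SCRG1 was chosen on its group difference. This likeness is therefore no separate evidence. Within the 7, VIM and CARTPT were each other's nearest (0.10), and so were EMP2 and STON2 (0.07). Among all loci, CARTPT ranked 21 from VIM, and VIM ranked 107 from CARTPT. EMP2 ranked 9 from STON2, and STON2 ranked 72 from EMP2. The median difference from a member to all loci tested lay between 0.24 (GTF2F2) and 0.35 (SCRG1). The 7 were chosen on a group difference in these same samples and had more counts than most loci. Smaller differences among them follow in part from that choice, so no likeness is read from this median.

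The loci around the 7 were not used by the rule and were tested. They were the loci that overlapped a member's span on either strand, and the nearest locus on each side within 10 kb. There were 77 of them, 51 around GTF2F2, 14 around CARTPT, 5 around STON2, 3 around VIM, 2 each around SCRG1 and PTGES3, and none around EMP2. None carried a symbol in Supplementary File 1. Of the 46 that passed the count filter, 18 were lower and 28 higher after GABA. Their median log2 change was 0.03, beside 0.01 over all loci tested, and these counts of direction were not tested. None had a Benjamini-Hochberg adjusted p under 0.05 in edgeR's quasi-likelihood test, which called 0% of all loci tested, and the smallest was 0.744. limma-voom called 0 of the 46, and DESeq2 called 0 of the 16 to which it gave an adjusted p. At an unadjusted p under 0.05 there was 1 lower locus and 0 higher ones, where 3.47% and 3.08% of all loci lay there. Groups without overlap were seen at 1 lower and 3 higher loci of the 46, beside 6.37% and 5.98% of all loci.

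STON2 lay wholly inside the span of a larger locus on its own strand, from 7056118 to 7217607, which shared no exon with it. That locus held 67.0% as many counts as STON2, and its log2 change was 0.00 (standard error 0.09, adjusted p = 0.998 in edgeR's quasi-likelihood test). At SCRG1, a locus on the opposite strand ran tail to tail into the last exon and shared 390 bp with it. This locus had 721 counts on average, more than SCRG1 itself, and a log2 change of 0.06 (standard error 0.07, adjusted p = 0.909 in edgeR). The next locus upstream of SCRG1, at a distance of 5212 bp on the opposite strand, had a change of −0.05 (standard error 0.08, adjusted p = 0.935 in edgeR). Neither neighbour passed the test, which called 0% of all loci tested.

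On the same strand, 3 loci with a mean count of at least 100 lay in or ran into the gap before the last block of CARTPT. The locus from 885659 to 902548 had a log2 change of 0.01 (standard error 0.08), the one from 899071 to 907176 a change of −0.06 (standard error 0.08), and the one from 911739 to 953806, which runs past its end, a change of −0.11 (standard error 0.08). Their adjusted p in edgeR's quasi-likelihood test lay at 0.997, 0.920 and 0.830. The locus 7877 bp downstream of VIM on the same strand had 1972 counts and a change of 0.01 (standard error 0.06, adjusted p = 0.982 in edgeR). The locus that spans PTGES3 on the opposite strand, without a shared exon, had a change of −0.04 (standard error 0.09, adjusted p = 0.961 in edgeR).

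Around the 1491372 bp of GTF2F2, 31 loci passed the filter, 9 lower and 22 higher after GABA. Their median log2 change was 0.07, beside 0.01 over all loci tested, and the split by direction was not tested. The locus with the most counts among them, from 1286553 to 2520249 on the same strand, had 4121 counts and a change of 0.04 (standard error 0.06, adjusted p = 0.935 in edgeR's quasi-likelihood test). The 1 locus with an unadjusted p under 0.05, from 2966213 to 2980959 on the opposite strand, had a change of −0.20 (standard error 0.09, adjusted p = 0.744 in the same edgeR test). Over the 29 neighbours of the 7 loci with a mean count of at least 100, log2 changes ran from −0.20 to 0.34. Over all 46 neighbours that passed the filter they ran from −0.55 to 1.13, with these extremes at loci of 14.8 and 11.8 counts.

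**Figure D4:**
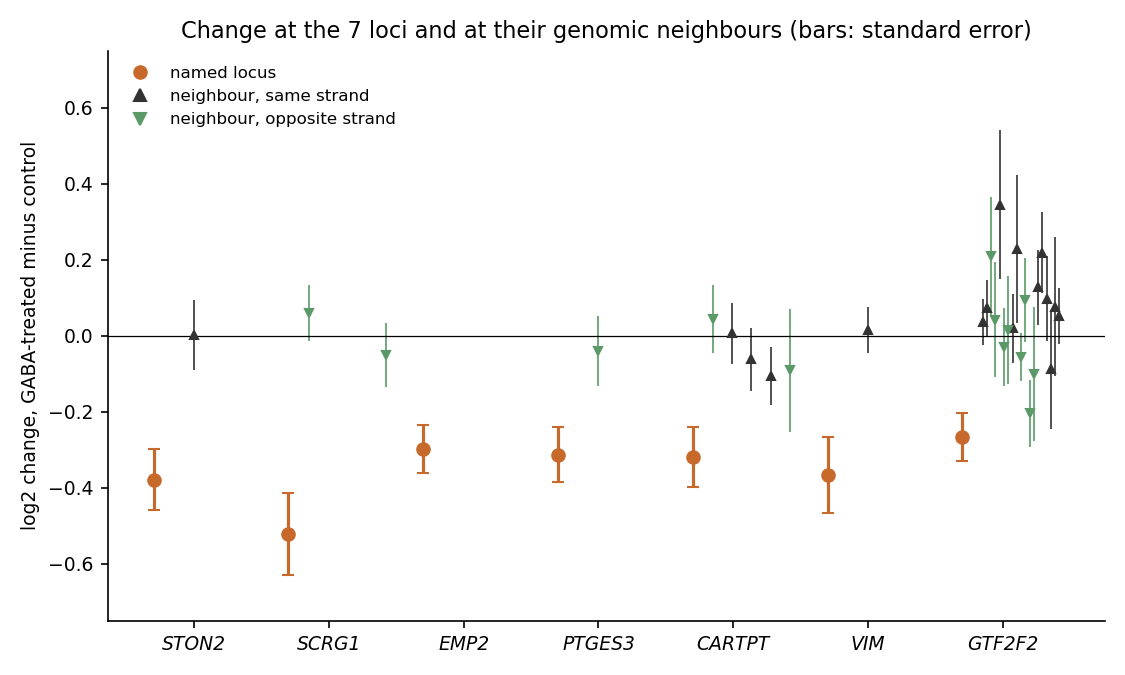
Log2 change (y axis, GABA-treated minus control, bars for the standard error) of the 7 loci (circles) and of their 29 neighbours with a mean count of at least 100 (triangles, by strand), with the neighbours of each locus in order of their start. The neighbours lie between −0.20 and 0.34, and the 7 loci, which were chosen on the adjusted p of this contrast, between −0.52 and −0.27.

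Reads were counted by strand, and 6 loci on the opposite strand shared exon positions with a member. The one that shared the most, 3202 bp of the 5921 bp of CARTPT, had 14.8 counts on average, which was 0.297% of the counts of CARTPT. That locus had a log2 change of −0.55 (standard error 0.46, adjusted p = 0.854 in edgeR's quasi-likelihood test). The one that shared 159 bp with VIM had 0.667 counts, and the one that shared 291 bp with STON2 had 6.83. At GTF2F2 the shared 440 bp belonged to a locus with 20.8 counts and a log2 change of 0.28 (standard error 0.34, adjusted p = 0.909 in the same test). Of the 6, only the partner of SCRG1 had more counts than its member.

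Few relatives of the 7 could be followed, because names were at hand only for the 66 loci that carry a symbol in Supplementary File 1. A list of 9 genes, set up for HSP90 and its co-chaperones, held 1 other such locus, DNAJB4, with a log2 change of 0.08 (standard error 0.08, adjusted p = 0.882 in edgeR). DNAJB4 was listed by its symbol and is not taken here as an HSP90 co-chaperone or as a relative of PTGES3. The edgeR test called 0% of all loci tested. A list of 8 genes, set up for general transcription factors, held GTF2IRD2, with 0.32 (standard error 0.31, adjusted p = 0.879 in edgeR). GTF2IRD2 was listed by its symbol and is not taken here as a general factor or as a relative of GTF2F2. A list of 9 clathrin adaptor and endocytosis genes held AP2S1, a subunit of the adaptor that stonins bind in mammals, with −0.38 (standard error 0.07). AP2S1 was chosen on the same contrast. The lists of 4 PMP22 family genes and of 9 neuropeptides and secreted brain proteins held no locus beside EMP2, CARTPT and SCRG1.

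A list of 9 genes of intermediate filaments, ependyma and radial glia held SoxE1 beside VIM, and SoxE family factors are known in vertebrate glia and neural crest. SoxE1 had 593 ± 56.4 normalized counts in the controls and 587 ± 24.3 after GABA (SD, n = 3 each), a log2 change of −0.02 (standard error 0.09, adjusted p = 0.989 in edgeR). SoxE1 did not pass the test, which called 0% of all loci tested, so this does not set it apart from VIM. The difference between its change and that of VIM was not tested.

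Loci of genes known from neurons, white blood cells, liver, and glia and ependyma were summed in CPM/kb. Only loci with a symbol on the paper's sheets could be found, and the paper lists these as changed after GABA or baclofen. They were thus not chosen apart from the treatments, and their sums are no neutral measure of cell composition. The 5 neuron loci (CPLX1, MAP6, GABRA5, GPR12, CASK) summed to between 99.3 and 114 in the controls and between 101 and 120 after GABA, mostly from CPLX1. MAP6 was near 0, at 0.323 CPM/kb. GABRA5, a GABA-A receptor subunit, was chosen on the same contrast and had a log2 change of 0.55 (standard error 0.14), and the other 3 neuron loci tested lay between −0.02 and 0.03. The 4 white blood cell loci (PTPRC, CD62L, VLRA, TLR2) summed to between 8.13 and 14.2 and between 8.76 and 11.4. Singly, PTPRC (−0.29) and TLR2 (−0.15) had log2 changes below 0, and CD62L (0.22) and VLRA (0.09) above 0, with standard errors from 0.17 to 0.40. The 2 loci of genes known from liver (TAT, CDO1) summed to between 48.0 and 77.8 and between 57.1 and 73.9, so they were not near 0. Their log2 changes were 0.08 (TAT, standard error 0.16) and −0.26 (CDO1, standard error 0.15). The glia and ependyma list (VIM, SoxE1) summed to between 169 and 215 in the controls and between 138 and 168 after GABA, and it was carried by the member VIM, so that its lower sum is no separate measurement. The part of cell composition in the lower values of the 7 loci was not tested.

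The log2 change was below 0 in 119 of 119 values, from 17 alternatives for each of the 7 loci. With 1 sample left out it ran from −0.59 to −0.42 at SCRG1, from −0.47 to −0.29 at VIM, from −0.45 to −0.32 at STON2, from −0.41 to −0.27 at CARTPT, from −0.37 to −0.26 at PTGES3, from −0.34 to −0.27 at EMP2 and from −0.30 to −0.24 at GTF2F2. These ranges are a description too, since the members were chosen on the difference between the groups in these 6 samples.

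**Figure D5:**
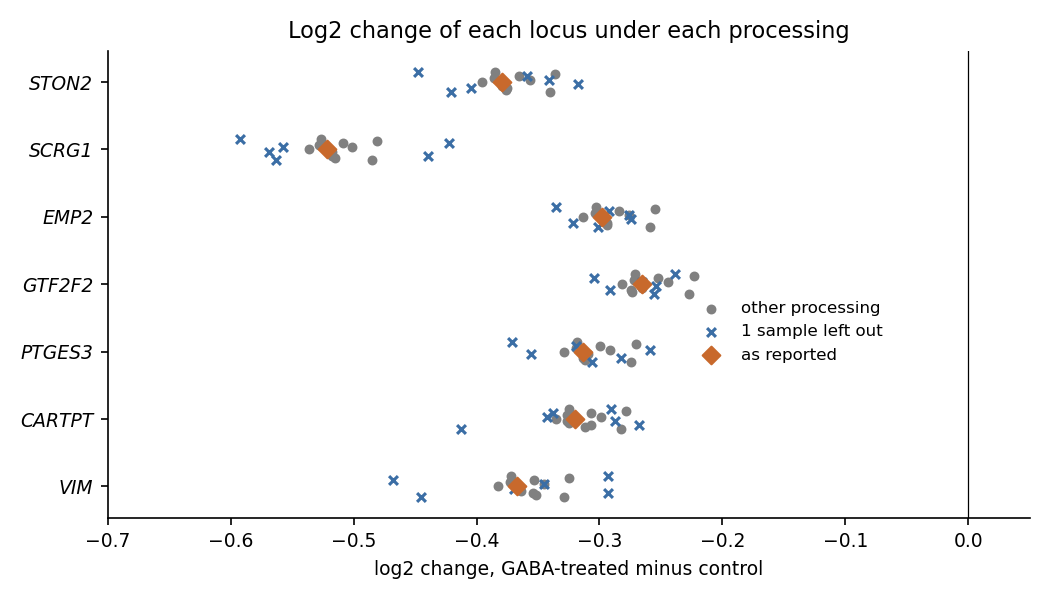
Log2 change (x axis) of each of the 7 loci (y axis) as reported (diamonds), with 1 sample left out (crosses) and under other processing (grey points). Every point lies below 0, and the crosses spread most at SCRG1, from −0.59 to −0.42, and VIM, from −0.47 to −0.29.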

How the data were processed

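The deposited values are whole-number fragment counts per locus, which the authors obtained from 150 bp stranded paired reads with fastp, STAR (to Pmar_germline 1.0), StringTie and featureCounts, counting both-end mapped, non-chimeric fragments by strand. They are not normalized. Tool versions are not given in the sources used here. Of 57134 loci, 2 were broken over 2 lines and were rejoined. All 6 count columns matched a sample by title, and 0 were left over.

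From these counts, loci passing filterByExpr (24300) were scaled by TMM and compared with edgeR 4.0.16 (quasi-likelihood, two-sided, Benjamini-Hochberg) in R 4.3.3, with treatment as the only term. DESeq2 1.42.0 and limma-voom (limma 3.58.1) were alternatives. Standard errors come from the F statistic. Profiles added 0.5 counts. Tables and figures used Python 3.11.15. Samples were pools of different animals, so p-values measure the spread between pools. Fits were tested on simulated data.

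The members and lists were chosen with earlier results of these data known. The text names all members and, for each, the most alike named locus. Of the neighbours with a mean count of at least 10, those described one by one were picked with their values known, and the rest are given as counts and ranges. Only symbols were taken from Supplementary File 1, whose fold changes and p-values were not used. Of the 7 symbols, 4 (SCRG1, GTF2F2, CARTPT, VIM) also occur in the RefSeq gene table of another sea lamprey assembly, which was not used further. No sequence of this build was used here.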

Additional observations from a re-analysis of the deposited data

How the results depend on the processing

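The median log2 change over the 7 loci was −0.32, and became −0.28 with library size only and −0.28 with factors from abundant loci, a setting chosen after seeing the data. With 1 sample left out it ran from −0.41 (without GABA-treated replicate 3) to −0.29. With the replicate number as a block it was −0.32. The labels give only a number, and same-numbered samples deviated with correlations of −0.11, 0.03 and −0.12, so they were not treated as pairs. The neighbouring loci had 0 calls under each of 18 alternatives, but edgeR called 0 of all 24300 loci as reported, and 16 and 29 of the 46 neighbours had an adjusted p with DESeq2 and with a mean count of at least 100, so these counts say nothing of stability. The loci without overlap numbered 6 of 7, all but VIM, with library size only, upper-quartile factors and factors from abundant loci. The median level of 63.5 CPM/kb became 5.38 with the genomic span as length, which counts introns as well. Every printed change rests on 3 pools per group, and edgeR did not call AP2S1 at −0.38 (standard error 0.07), so neighbour changes of a like multiple of their standard errors were not detectable.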
